A study of Bos taurus with 30 samples.

Results

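Chemokines, interleukins and their receptors were followed in the skin of cattle before and after tick infestation. The members were the genes whose single annotated symbol begins with CCL, CXCL, CCR, CXCR or IL and a number, with CXCL10, CCL26, CCR3 and IL33 left out. Of 9155 genes with a probe set of 1 symbol, 72 matched the names and 68 remained, 42 of them ligands or antagonists and 26 receptors. Where a gene had several probe sets (sets of short probes that read 1 transcript), which was so for 14 members, the one with the highest mean over all arrays was used.

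The animals were F2 offspring of a cross between the indicine breed Gyr (Bos indicus) and the taurine breed Holstein (Bos taurus), called tick resistant (6 animals) or tick susceptible (7 animals) in the labels. Skin was taken at the sites where ticks fed, and the uninfested state is a biopsy before infestation (0 h). Before infestation there were 5 resistant and 3 susceptible arrays. After 24 h there were 6 of each phenotype, and after 48 h there were 5 of each. All groups share the same cross. The animals' age and how resistance was scored are not given in the sources used here.

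Chemokines are small secreted proteins that bind G protein-coupled receptors on leukocytes and direct where those cells move. The CC and CXC families are named after the spacing of their first cysteines. Interleukins are cytokines, and many of them act through paired receptor chains. In skin both keratinocytes and resident or recruited immune cells make and sense interleukins. Interleukins 4, 5 and 13 drive type 2 immunity, the arm known for responses to ticks and worms.

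The values are log2 signals of the MAS5 method, and the number of arrays limits their precision. Array medians lay between 7.17 and 7.40, and a member was called low when its mean over 30 arrays fell below the mean of these medians, 7.29. On the first principal component the 48 h array of resistant animal 1 stood apart, at 65.6 against 38.3 for the next array. The resistant 0 h arrays numbered 3, 4 and 5 lay closest to the later arrays of animals 4, 5 and 6, so the animal numbers of these 3 arrays are in doubt. For number 3 the log2 distance was 0.47 to the closest animal and 2.46 to its own number. It was 0.66 and 2.62 for number 5 but 0.71 and 1.13 for number 4, the least clear of them. The group and time of these 3 arrays were used as labelled and were not tested. Skin markers were present: 8 of 9 measured keratinocyte genes and 9 of 9 fibroblast genes were at or above the median, and the 3 blood genes HBA, HBB and ALAS2 were below it.

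Most members gave a low signal in this skin. In all, 23 members lay at or above 7.29 and 45 below it. A probe set was tested only if it reached its array's median in at least 3 arrays, which kept 30 members (44.1%), against 57.5% of all probe sets. Among members near this limit, IL21R was kept with 3 arrays and CXCL5 with 5, whereas IL1A, IL1R2 and IL2RG reached the median in 2 arrays and were not tested. The kept members with a low mean were CCL8, CCL19, CXCL5, CXCL13, IL10RA, IL17RB and IL21R. A kept member could pass through 1 group alone, so the share kept says nothing of a difference between groups.

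The CC chemokines were the best represented ligands, with 7 of 13 members at or above the median and 9 kept. CCL14, a chemokine that circulates in plasma and binds CCR1, averaged 10.32 ± 0.44 in resistant and 10.18 ± 0.46 in susceptible skin at 48 h (SD, n = 5 each). CCL2, which recruits monocytes through CCR2, averaged 9.06 ± 0.64 in resistant and 8.76 ± 0.69 in susceptible skin at that time (SD, n = 5 each). CCL22 and CCL11, which attract type 2 T cells and eosinophils, were low and not kept.

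Of 10 CXC chemokines, CXCL12, CXCL14 and CXCL16 lay at or above the median. CXCL14, made constitutively by epithelium, had a group mean between 13.17 and 13.66 across the 6 groups. CXCL12, the stromal ligand of CXCR4, had group means between 11.99 and 12.61. The neutrophil attractants CXCL2, CXCL3 and CXCL8 were low and not kept, and CXCL2 and CXCL3 have near-identical sequences that a probe set may not separate. Among 7 chemokine receptors only CXCR4 was at or above the median.

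The interleukins themselves were mostly low. None of the 8 lymphocyte growth and type 2 interleukins (IL2, IL3, IL4, IL5, IL7, IL13, IL15 and IL21) reached the median on average or was kept. IL1A and IL1B, the inflammatory IL-1 ligands, were also low, whereas IL1RN, their secreted antagonist, and IL18 were kept. Of the 26 receptors 10 lay at or above the median, and of the 42 ligands and antagonists 13 did. The receptors were CXCR4, IL17RC, IL4R and IL13RA1, which together form a receptor for IL-4 and IL-13, IL1R1 and its partner chain IL1RAP, IL10RB, which is shared by several IL-10 family receptors, and IL20RA, IL20RB and IL6R. A low signal does not show that a transcript was absent.

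**Figure D1:**
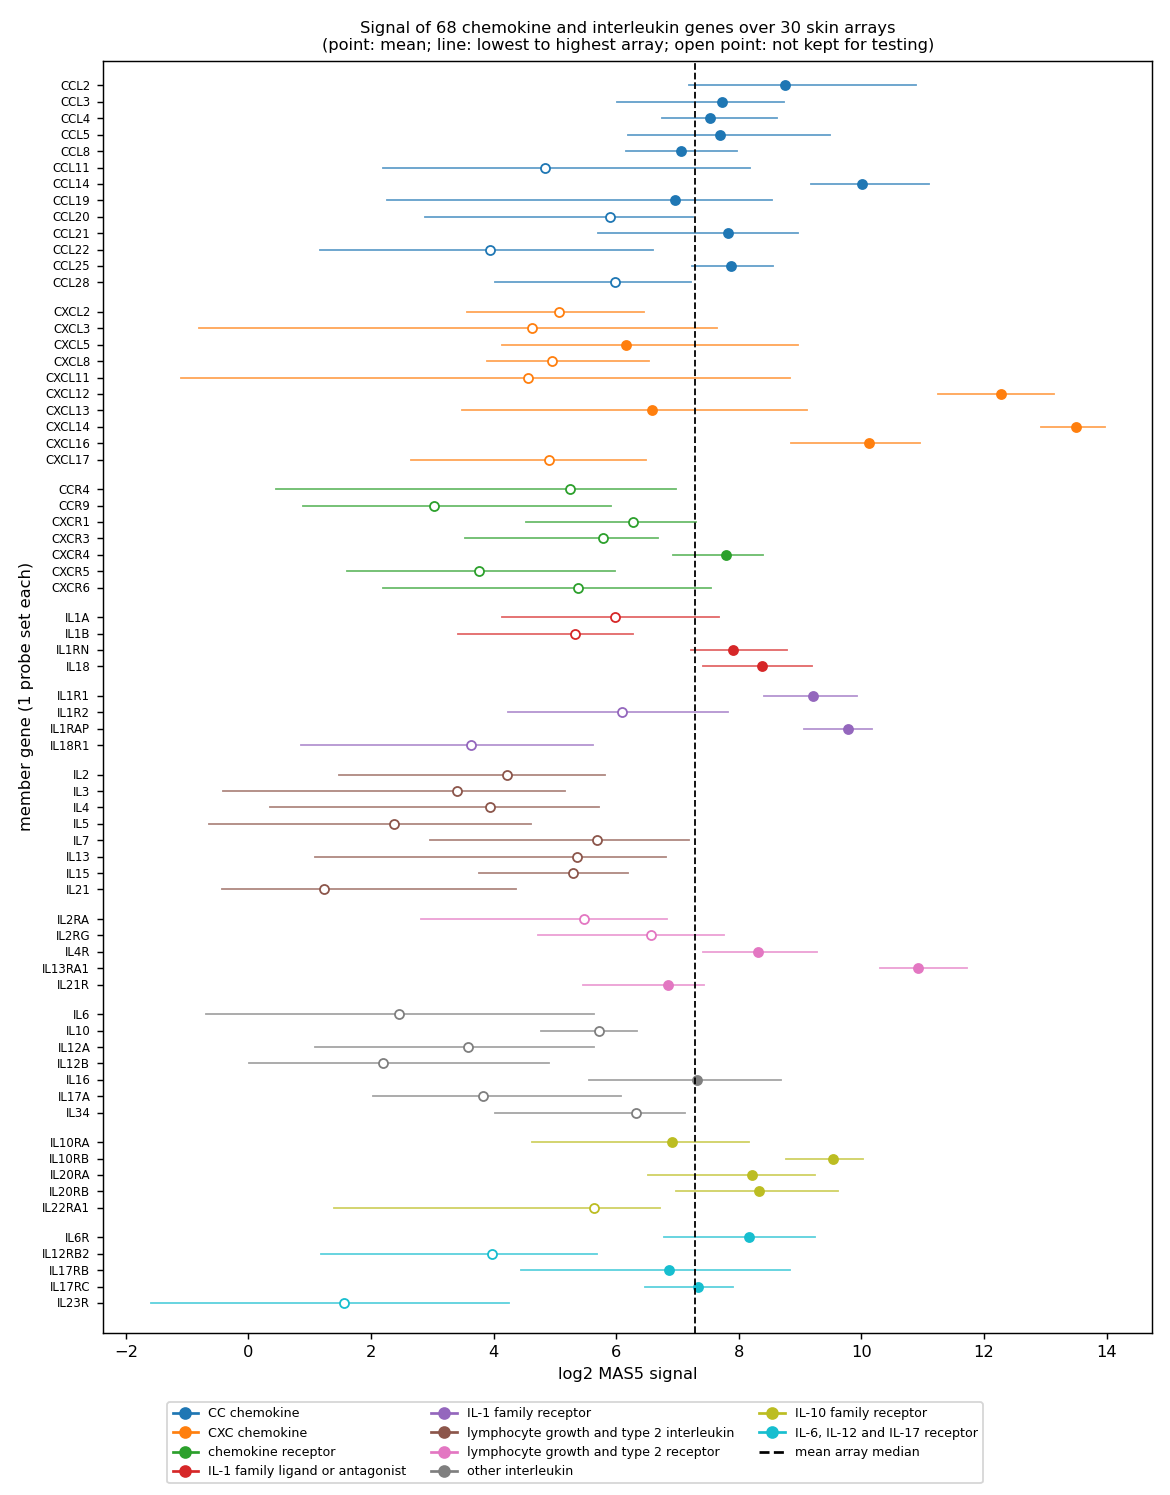
Mean log2 signal of each of the 68 members over 30 arrays (point) with its lowest and highest array (line), grouped by role; the dashed line is the mean array median, 7.29. Filled points are the 30 members kept for testing, and the type 2 interleukins lie left of the line while most kept receptor chains lie right of it.

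Resistant and susceptible skin were compared first at 48 h. No member passed the test (limma, adjusted p under 0.05 over 13809 probe sets), in a comparison where 2 probe sets, or 0.0145%, did. At an unadjusted p under 0.05 there were 5 members of 30, against 10.1% of all probe sets. The members' median log2 difference was 0.23 with 20 of 30 positive, beside a median of -0.04 over all probe sets. In whole skin, fewer cells of a type and less RNA per cell cannot be told apart.

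CXCL14 had the smallest p of the members. Its log2 signal was 12.93, 13.12, 13.29, 13.03 and 13.45 in resistant skin at 48 h, against 13.45, 13.64, 13.67, 13.75 and 13.55 in susceptible skin. The highest resistant array met the lowest susceptible one, and the other resistant arrays lay below every susceptible array. The log2 difference was -0.45 ± 0.13 (SE), with an adjusted p of 0.210 in limma and a 95% interval from -0.72 to -0.18 that is not adjusted for the number of members.

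IL1RAP, the chain that IL-1 and IL-33 receptors need to signal, had 9.47, 9.07, 9.76, 9.30 and 9.51 in resistant skin at 48 h, against 9.69, 9.67, 10.17, 9.83 and 9.87 in susceptible skin. The groups overlapped through 1 resistant array. For IL1RAP the log2 difference was -0.43 ± 0.13 (SE), with an adjusted p of 0.248 in limma.

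IL4R, the chain shared by the IL-4 and IL-13 receptors, had 9.28, 8.49, 7.89, 8.75 and 8.54 in resistant skin at 48 h, against 7.94, 7.73, 7.42, 8.79 and 8.04 in susceptible skin. The groups overlapped, with susceptible animal 11 among the high resistant values and resistant animal 3 among the susceptible ones. IL4R differed by 0.61 ± 0.25 (SE) on the log2 scale, with an adjusted p of 0.432 in limma. IL10RB had 10.03, 9.63, 9.95, 9.60 and 9.83 in resistant skin, against 9.16, 9.51, 8.80, 9.995 and 9.41 in susceptible skin, where animal 11 was again the one as high as the resistant arrays. Its log2 difference was 0.43 ± 0.19 (SE), with an adjusted p of 0.475 in limma, and 0.29 without susceptible animal 10. No member had groups without overlap at 48 h, against 1.19% of probe sets. A random replicate block with the 3 doubtful numbers moved passed 0.0362% of probe sets and no member.

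IL20RB, a chain of the IL-20 and IL-24 receptors of keratinocytes, was the fifth member with an unadjusted p under 0.05 at 48 h. It had 6.98, 7.71, 8.24, 7.72 and 9.01 in resistant skin, against 8.37, 9.50, 9.63, 7.60 and 8.23 in susceptible skin. The groups overlapped widely, and the log2 difference of -0.73 ± 0.33 (SE) had an adjusted p of 0.477 in limma. IL16, a ligand of CD4 that attracts CD4 cells, had 8.69, 8.06, 7.66, 7.41 and 7.98 in resistant skin, against 7.81, 6.82, 5.56, 7.66 and 7.59 in susceptible skin. Susceptible animals 10 and 9 were lowest for IL16, and the other 3 susceptible arrays lay within the resistant range.

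The signals of the abundant chemokines CXCL12 and CCL2 overlapped between the phenotypes at 48 h. CXCL12 had 12.82, 12.11, 12.41, 11.83 and 12.06 in resistant skin, against 11.96, 12.31, 11.35, 12.64 and 11.71 in susceptible skin, with a log2 difference of 0.25 and a 95% interval from -0.30 to 0.81. CCL2 had 9.63, 8.39, 8.50, 9.80 and 8.98 in resistant skin, against 9.87, 8.52, 8.95, 8.28 and 8.17 in susceptible skin, with a log2 difference of 0.30 and an interval from -1.05 to 1.66. A shift of CCL2 past 2-fold in either direction lies inside that interval.

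**Figure D2:**
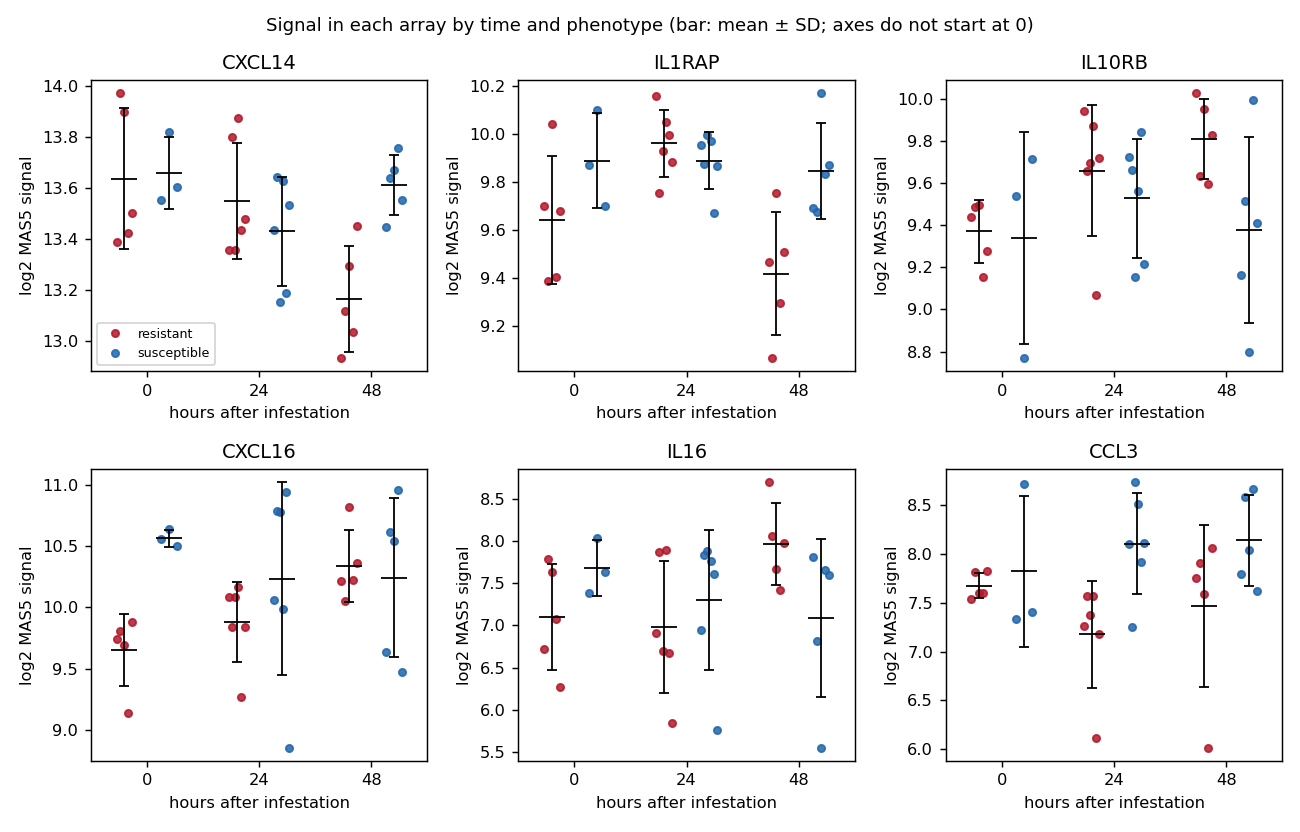
Log2 signal of selected members in each array, with resistant groups left of susceptible groups at each time and group means marked. CXCL14 in resistant skin at 48 h lies between 12.93 and 13.45, and in susceptible skin between 13.45 and 13.75.

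Cell type markers differed in level at the same time. All 11 tested macrophage and monocyte genes were positive in resistant against susceptible skin, with a median log2 difference of 1.32, and the summed signal of the list was 14274 to 27026 in resistant and 3659 to 13984 in susceptible skin. ITGAM and FCER1G were below the array median. All 9 keratinocyte genes were negative, with a median of -0.62 and summed signals of 17217 to 78248 in resistant and 42770 to 120829 in susceptible skin. All 9 fibroblast genes were positive, with a median of 0.57, and all 3 tested mast cell, basophil and eosinophil genes were positive, with a median of 1.57. Only 4 of the 12 genes of the latter list were measured, and TPSB2, FCER1A and HDC among them were below the array median. The 3 tested melanocyte genes were negative, with a median of -2.31, and T cell and NK genes had a median of 0.01. None of these genes passed the test. The 3′ minus 5′ log2 signal of the actin control, a sign of RNA integrity, had a median of 4.40 (1.16 to 4.86) in resistant and 2.97 (1.67 to 3.68) in susceptible skin, so the ranges overlapped. That of the GAPDH control had a median of 0.574 in resistant and 0.557 in susceptible skin. The part of cell makeup and RNA integrity in the members' values was not tested.

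**Figure D3:**
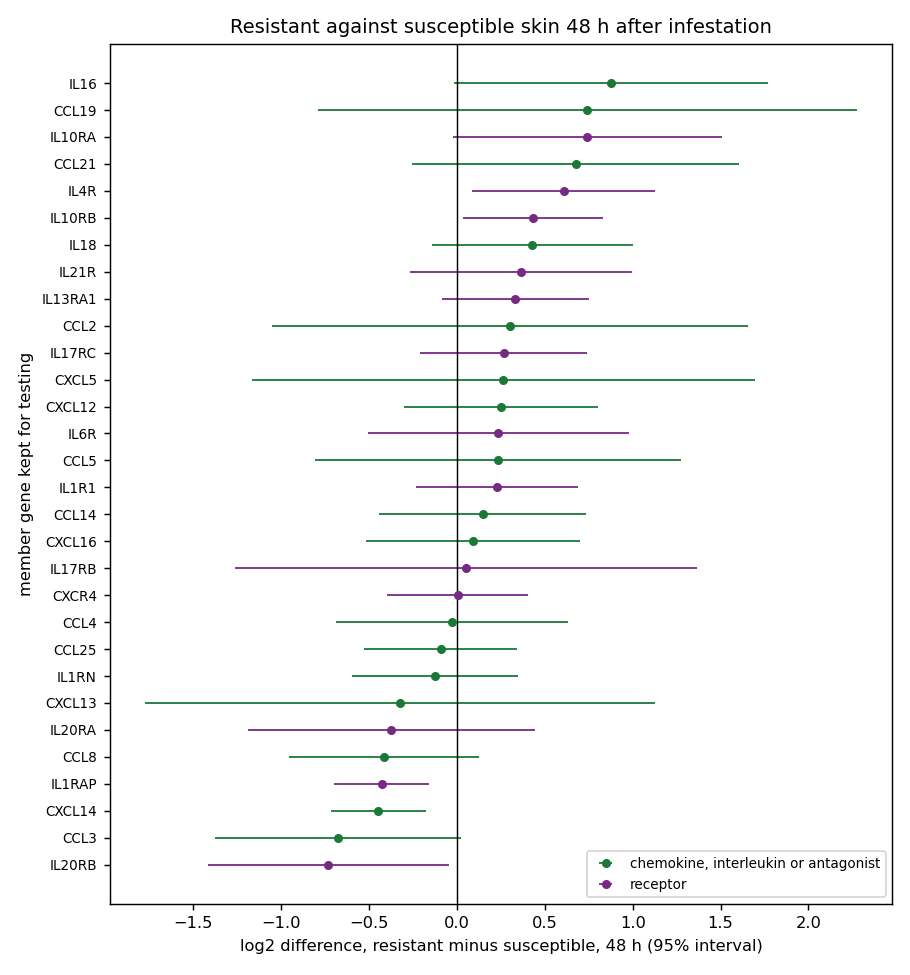
Log2 difference of the 30 kept members between resistant and susceptible skin at 48 h, with 95% intervals from limma that are not adjusted for the number of members. CXCL14 at -0.45 and IL1RAP at -0.43 are negative, and IL4R at 0.61 and IL10RB at 0.43 are positive.

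Within resistant skin, 48 h was compared with 0 h. No member passed the test in limma, and no probe set did (0%). Unadjusted p-values were under 0.05 for 5 of 30 members, against 11% of all probe sets. CXCL14 at 48 h, given above, lay against 13.39, 13.97, 13.90, 13.42 and 13.50 at 0 h. Only the highest 48 h array exceeded the lowest 0 h arrays. CXCL14 had a log2 difference of -0.47 ± 0.13 (SE), with an adjusted p of 0.274 in limma.

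CXCL16, a membrane-bound chemokine that also acts as a scavenger receptor, had 10.21, 10.05, 10.82, 10.22 and 10.36 at 48 h, against 9.74, 9.80, 9.69, 9.14 and 9.88 at 0 h in resistant skin. The groups did not overlap. The log2 difference was 0.68 ± 0.30 (SE), with an adjusted p of 0.403 in limma, and the second kept probe set of CXCL16 gave 0.38 ± 0.29 (SE). CCL21, which guides dendritic cells and T cells to lymph nodes through CCR7, had 8.28, 8.06, 8.58, 8.49 and 8.22 at 48 h, against 7.74, 7.63, 7.57, 6.79 and 7.12 at 0 h, again without overlap, and a log2 difference of 0.95 ± 0.45 (SE). IL10RB was the third member without overlap, at a log2 difference of 0.44 ± 0.19 (SE). Groups did not overlap for 1.98% of all probe sets. IL13RA1, a chain of the IL-13 receptor, had a log2 difference of 0.46 ± 0.21 (SE) and overlapping groups. With the animal as a replicate block 0 members passed in this comparison, while probe sets did. A fixed block passed 0.608% of probe sets, and 0.782% with the 3 doubtful numbers moved. A random block passed 0.0145%, and 0.029% with the numbers moved. The adjusted p in limma with the fixed block was 0.0946 for CXCL14, 0.121 for CXCL16, 0.127 for IL10RB and 0.104 for IL13RA1. With the fixed block and the numbers moved it was 0.0965, 0.0710, 0.0776 and 0.142 in the same order. Macrophage genes had a median log2 difference of 0.92 in this comparison, and keratinocyte genes -0.55. Mast cell, basophil and eosinophil (0.84, 3 tested genes), smooth muscle (0.57) and endothelial (0.46) lists were positive too. So were B cell and plasma (0.33, 2 tested genes), fibroblast (0.20), T cell and NK (0.16) and neutrophil (0.01) lists. Melanocyte (-0.98) and dendritic (-0.46, 1 tested gene) lists were negative. The 3′ minus 5′ signal of the actin control had a median of 4.40 (1.16 to 4.86) at 48 h and 2.63 (1.92 to 3.43) at 0 h. For the GAPDH control the medians were 0.574 and 0.372. The part of cell makeup and RNA integrity in these values was not tested.

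Between 48 h and 24 h in resistant skin, 5 of 30 members had an unadjusted p under 0.05, against 9.65% of probe sets, and none passed the test (0% of probe sets did). IL1RAP had the values given above at 48 h, against a lowest of 9.75, a median of 9.96 and a highest of 10.16 over 6 arrays at 24 h. The groups met at 1 array, animal 3 at 48 h. The log2 difference was -0.54 ± 0.13 (SE), the seventh smallest p of 13809, with an adjusted p of 0.307 in limma. IL16 at 48 h, given above, lay against a lowest of 5.85, a median of 6.80 and a highest of 7.89 at 24 h. The groups overlapped, and the log2 difference was 0.98 ± 0.42 (SE). No member had groups without overlap, against 0.898% of probe sets. With the animal as a fixed replicate block and the 3 doubtful numbers moved, 0.116% of probe sets passed this comparison, and with a random block 0.0362% did; no member was among them.

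Between 24 h and 0 h in resistant skin, 1 of 30 members had an unadjusted p under 0.05, against 4.72% of probe sets, and none passed (0% of probe sets did). That member was IL1RAP, with a log2 difference of 0.32 ± 0.13 (SE). The groups of IL1RAP overlapped, since the 0 h array numbered 3 stood at 10.04. No member had groups without overlap, against 0.681% of probe sets.

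CCL19, which shares the receptor CCR7 with CCL21, had 7.80, 6.20, 7.29, 6.17 and 4.88 at 0 h in resistant skin, a lowest of 6.08, a median of 6.996 and a highest of 8.45 at 24 h, and 8.54, 7.56, 7.13, 7.92 and 7.28 at 48 h. CCL19 was low, with a mean of 6.95 over all arrays, and its 0 h arrays spread over the widest range. The log2 difference between 48 h and 0 h was 1.22 ± 0.75 (SE), with an adjusted p of 0.551 in limma. IL13RA1 had 11.68, 11.73, 10.94, 10.66 and 11.21 at 48 h, against 11.17, 11.20, 10.30, 10.77 and 10.50 at 0 h.

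Before infestation, resistant skin was compared with susceptible skin, which had 3 arrays. No member passed the test in limma and no probe set did (0%), and 2 of 30 members had an unadjusted p under 0.05, against 4.51% of probe sets. The members' median log2 difference was -0.24, beside -0.01 over all probe sets, and 6 of 30 were positive. All 9 CC chemokines, all 5 CXC chemokines and CXCR4 had negative values, as did 3 interleukins, while interleukin receptors were split at 6 and 6. T cell and NK markers had a median log2 difference of -0.57 in the same comparison, and 9 of their 16 measured genes were low. Other lists were negative too: B cell and plasma (-0.65, 2 tested genes), endothelial (-0.48), melanocyte (-0.42) and mast cell, basophil and eosinophil (-0.35). Smooth muscle had -0.33, keratinocyte -0.18 and fibroblast -0.07. The positive lists were macrophage (0.09), neutrophil (0.12) and dendritic (0.36, 1 tested gene). The part of T cells or other cells in these values was not tested.

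CXCL16 had 9.74, 9.80, 9.69, 9.14 and 9.88 in resistant skin at 0 h, against 10.56, 10.64 and 10.50 in susceptible skin. The groups did not overlap, as for 4.62% of all probe sets, and CCL21 was the other such member. The log2 difference of CXCL16 was -0.91 ± 0.34 (SE), and its second kept probe set gave -0.46 ± 0.34 (SE). IL20RB had 7.93, 7.59, 8.39, 8.13 and 8.60 in resistant skin, against 8.46, 9.61 and 8.97 in susceptible skin, and a log2 difference of -0.89 ± 0.39 (SE), or -0.59 without susceptible animal 10. In IL20RB, 1 resistant array lay above the lowest susceptible one.

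At 24 h, 1 of 30 members had an unadjusted p under 0.05 between resistant and susceptible skin, against 4.4% of probe sets, and none passed the test (0% of probe sets did). CCL3, an inflammatory chemokine, had a lowest value of 6.11, a median of 7.32 and a highest of 7.57 in resistant skin, against 7.25, 8.11 and 8.74 in susceptible skin. The groups overlapped at susceptible animal 9. The log2 difference was -0.93 ± 0.31 (SE), with an adjusted p of 0.978 in limma. A second kept probe set of CCL3 gave 0.17 ± 0.39 (SE) in the same comparison, so the direction depends on the probe set. No member had groups without overlap at 24 h, against 0.167% of probe sets. On the log2 scale CCL14 differed by -0.44 ± 0.26 (SE), CXCR4 by 0.28 ± 0.18 (SE) and IL20RA by 0.48 ± 0.36 (SE), all with an unadjusted p above 0.05. Without susceptible animal 12 CCL14 gave -0.26 and CXCR4 0.15.

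Within susceptible skin no member and no probe set passed the test in any of the 3 comparisons of times (0% each). Unadjusted p-values under 0.05 were found for 3 of 30 members at 24 h against 0 h (2.3% of probe sets), for none at 48 h against 0 h (0.949%) and for none at 48 h against 24 h (1.88%). CXCR4, the receptor of CXCL12, had a lowest of 6.93, a median of 7.58 and a highest of 7.98 at 24 h, against 7.87, 8.39 and 8.28 at 0 h. The groups overlapped at animal 8. Its log2 difference was -0.63 ± 0.22 (SE). IL20RB at 24 h against 0 h gave -0.90 ± 0.37 (SE) and CCL8, a monocyte attractant, -0.66. Groups without overlap were found for no member at 24 h against 0 h (1.5% of probe sets) or at 48 h against 24 h (0.152%). CCL5, which attracts T cells, had 8.66, 8.25 and 8.47 at 0 h and a lowest of 6.45, a median of 7.27 and a highest of 8.64 at 24 h. T cell and NK markers had a median log2 difference of -0.49 in that comparison. Other lists were negative too: smooth muscle (-0.46), B cell and plasma (-0.45, 2 tested genes) and keratinocyte (-0.37). So were mast cell, basophil and eosinophil (-0.33, 3 tested genes), macrophage (-0.11) and fibroblast (-0.05) lists. Endothelial (0.01), neutrophil (0.13) and dendritic (0.14, 1 tested gene) lists were positive, and the melanocyte list had the largest positive median. The part of T cells or other cells in the CCL5 values was not tested. IL18, an IL-1 family cytokine of keratinocytes, had 8.12, 8.19, 8.20, 8.01 and 8.11 at 48 h, against 9.04, 8.40 and 8.20 at 0 h, the one member without overlap, against 1.35% of probe sets. The closest values of IL18 were equal to 2 decimals.

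The response of resistant skin was set against that of susceptible skin. For 48 h against 0 h, 3 of 30 members had an unadjusted p under 0.05 (2.93% of probe sets), and for 24 h against 0 h, 1 of 30 did (1.85%); none passed the test in limma, nor did any probe set (0% each). The difference of the 48 h responses was 1.01 ± 0.46 (SE) for CXCL16, 1.46 ± 0.67 (SE) for IL16 and -0.43 ± 0.20 (SE) for CXCL14. With the animal as a fixed replicate block the value of CXCL16 was 0.47 ± 0.32 (SE), with an unadjusted p of 0.163 in limma, and 0.45 ± 0.26 (SE) with the 3 doubtful numbers moved. The difference of the 24 h responses was 1.23 ± 0.49 (SE) for IL20RB. These comparisons share the 3 susceptible 0 h arrays with those above.

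**Figure D4:**
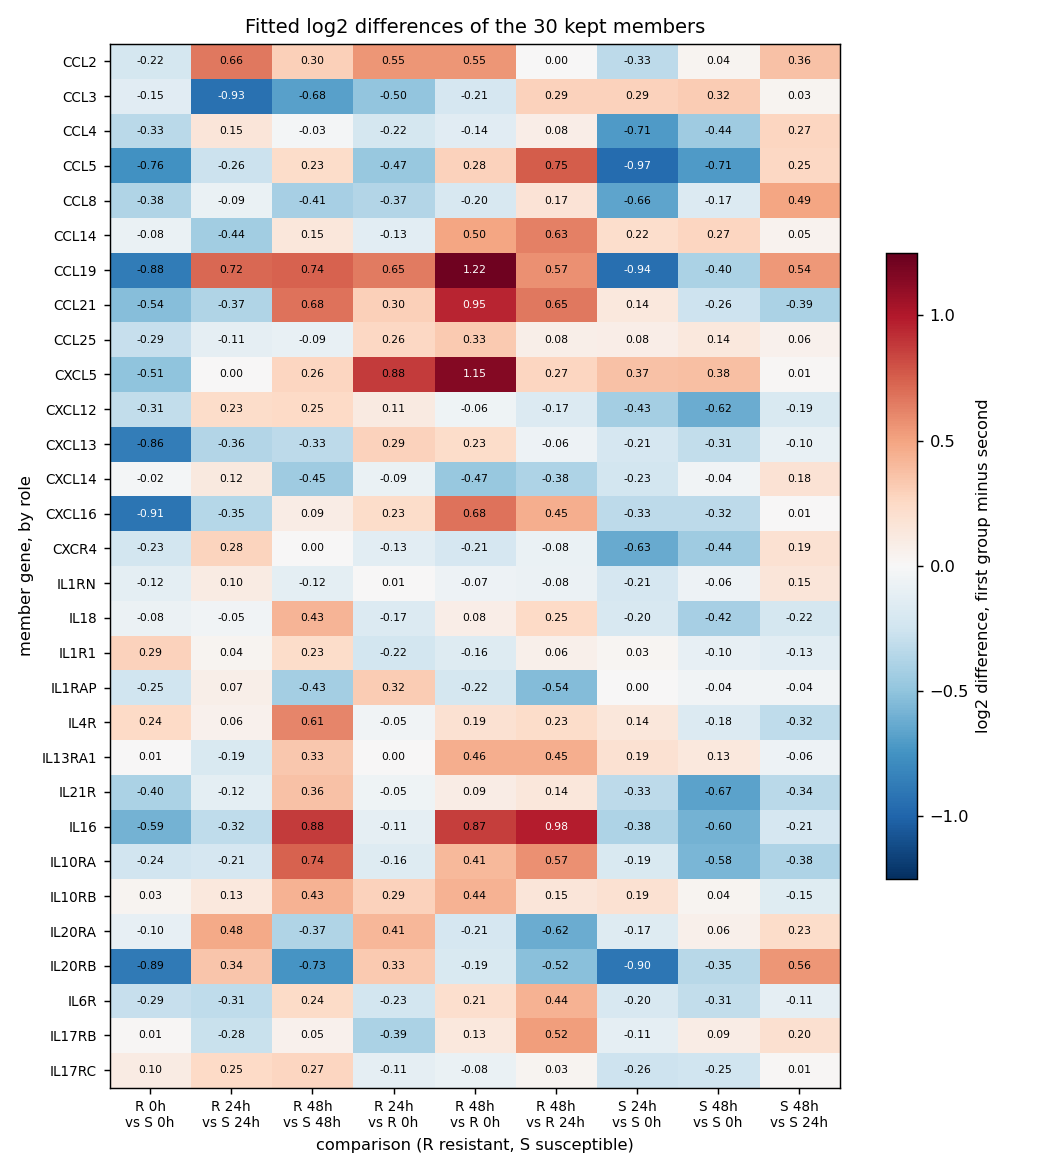
Log2 differences of the 30 kept members in the comparisons of 2 groups, as a colour scale from negative to positive. Values run from -0.97 for CCL5 in susceptible skin at 24 h against 0 h to 1.22 for CCL19 in resistant skin at 48 h against 0 h, and no value passed the test. CCL19 was low, with a mean of 6.95 over all arrays.

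Shares of variance were taken between the 13 animals and between the 6 groups. Such a share is larger with more labels, even where the labels have no effect. The shares below are therefore not on an equal footing, and how far they exceed those of labels without effect was not tested. Animals lie within phenotypes, so the share between animals also holds any difference between resistant and susceptible skin. In the random replicate block the correlation between arrays of the same animal was 0.14, and 0.21 with the 3 doubtful numbers moved. Over the kept members, a median of 48.8% of the variance lay between animals and 16.6% between the 6 groups, beside 47.6% and 17.1% over all kept probe sets. IL1RAP, with 53.0%, and CXCL14, with 44.1%, had a large share between groups. CXCL13, a B cell attractant with a low mean signal of 6.59, had 71.4% between animals. Susceptible animal 9 had CXCL13 signals of 8.54, 9.12 and 8.47 at 0 h, 24 h and 48 h, above every other array of the member. Across kept probe sets, the deviations of animal 9's 48 h array from its group mean had a correlation of -0.13 with those of its 0 h array and -0.04 with those of its 24 h array; probe sets are not independent replicates. IL6R had 70.8% between animals and IL10RB 70.6%. For the 3 animals with 1 array, the whole deviation of that array counts as between animals. Susceptible animal 8, which has only a 24 h array, stood at 6.79 for IL6R, against 8.13 to 8.89 in the rest of its group. The shares between animals also rest on animal numbers of which 3 are in doubt, and with those moved the members' median was 54.0%.

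**Figure D5:**
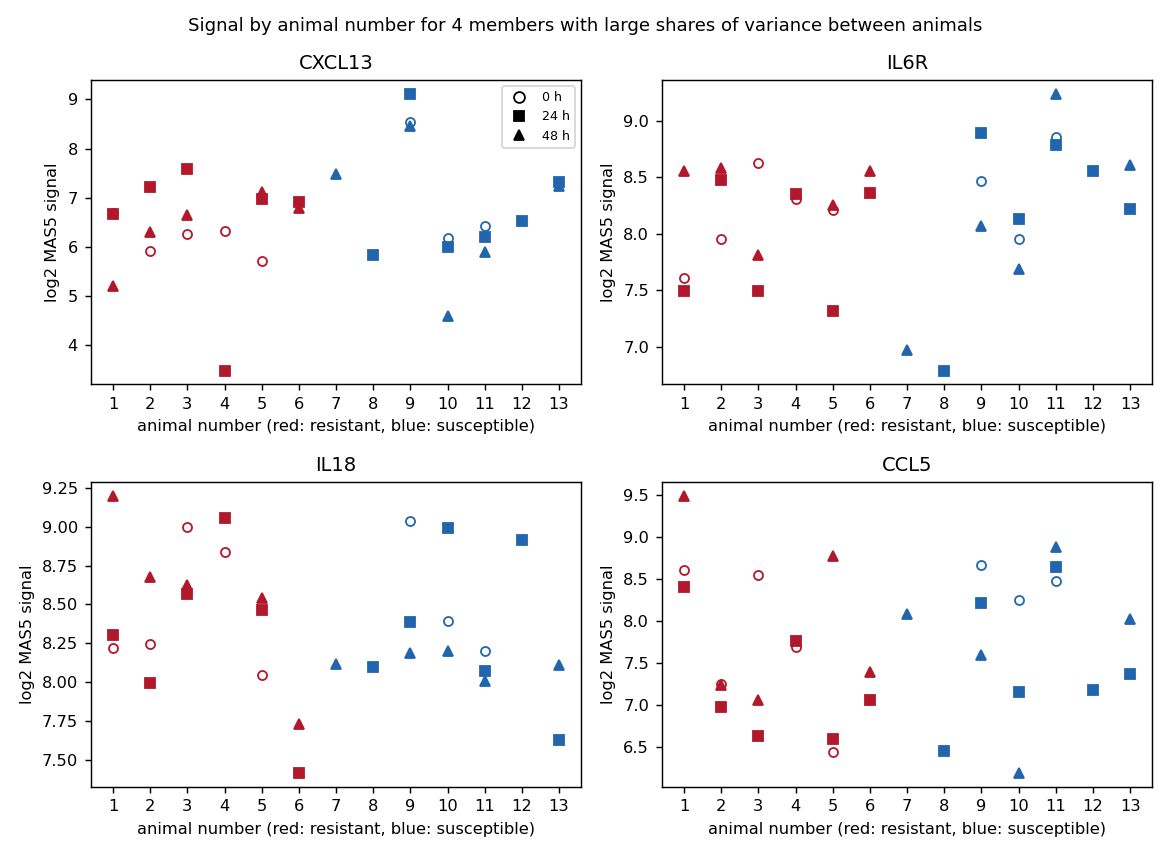
Log2 signal of members with large shares of variance between animals, by animal and time. Susceptible animal 9 stays at 8.47 or above for CXCL13 at all 3 times.

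Members below the filter were fitted without it, and none passed the test. CCR4, a receptor of type 2 T cells, averaged 3.64 ± 2.20 in resistant skin (SD, n = 5) and 6.33 ± 0.04 in susceptible skin (SD, n = 3) at 0 h, both below the array median. IL34, a ligand of the macrophage receptor CSF1R, had 6.87, 6.996, 6.64, 6.81 and 7.06 in resistant skin at 48 h, against 4.77, 6.31, 4.71, 7.01 and 6.37 in susceptible skin. Its log2 difference was 1.04 ± 0.40 (SE), with an adjusted p of 0.482 in limma over 24016 probe sets, and susceptible animal 11 lay within the resistant values.

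Other genes of these pathways gave no call either. Of 11 tested genes of cytokine signal transduction, 6 were positive and 5 negative in resistant against susceptible skin at 48 h, with a median log2 difference of 0.03. STAT6, which carries the IL-4 signal, had 0.29 ± 0.15 (SE). Of 19 genes of IL-1 receptor and NF-kB signalling, 8 were positive and 11 negative, with a median of -0.03. Of 13 other cytokine genes of skin, 10 were positive, among them CSF1R at 1.42 ± 0.47 (SE) with an adjusted p of 0.301 in limma.

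Chemokine and interleukin genes lie in clusters, and 28 of 67 members found in the RefSeq gene order (ARS-UCD2.0) had another member within 5 genes, in 11 runs. CCL3, CCL4, CCL5 and CCL14 form a run in which 4 of 4 members lay at or above the median. The run of IL4, IL5 and IL13 had none, as did that of CXCL3, CXCL5 and CXCL8.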

How the data were processed

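The authors' deposited values are log2 signals made with MAS5, per the submitters' processing notes; no version or genome build is given in the sources used here. RNA was labelled with a 3′ kit, per the labels' protocols. On the linear scale all 30 arrays shared a 2% trimmed mean of 500. The log2 values were used as deposited. The table holds 24128 probe sets; without the 112 controls 24016 remain, and 13809 reached their array's median in at least 3 arrays. Symbols came from the platform annotation.

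Means of 6 groups were fitted with limma 3.58.1 in R 4.3.3 (eBayes with trend), in 11 comparisons. Tests were two-sided, adjusted by Benjamini and Hochberg over 13809 probe sets. On simulated data for resistant against susceptible skin at 48 h (13809 probe sets), 72 of 100 changes of 1 log2 unit and 95 of 100 of 2 were recovered, with 6 false calls. The simulated noise was independent between probe sets and arrays and held no animal effect. These counts therefore check the code and do not measure power or false calls in the real arrays. Named members were the 4 with the smallest p in each comparison of groups (3 for differences of responses), the 2 highest means of each role group and the 1 with the largest share of variance between animals in each of CC chemokines, CXC chemokines, chemokine receptors, interleukins and interleukin receptors; CCL19, CCL21, CCR4 and members named for a low signal or an overlap were chosen after their values were seen. Members and lists were chosen with earlier results of these data known.

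Same-numbered arrays come from the same animal per the labels. Over 24 such pairs the median correlation of deviations was 0.25, against -0.03 over 124 pairs of different numbers. Of the 24, 16 were over 0.1, as were 27 of the 124. The highest was 0.63 among the 24 and 0.69 among the 124, between the resistant 0 h array numbered 5 and animal 6 at 24 h. The 8 same-numbered pairs not over 0.1 involved the resistant 0 h arrays numbered 2 (at 48 h), 3, 4 and 5 and the 48 h array of susceptible animal 9. The animal was therefore kept as an alternative replicate block. Alternatives also covered scaling, filter, offset, trend, weights, probe set and each array left out.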

Additional observations from a re-analysis of the deposited data

Results flagged for a closer look

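Groups of 4 to 6 arrays were searched for 1 array far from the rest by Dixon's criterion. Of 145 such groups of the 29 named members, 16 held one, and chance gives about 1 in 20. Resistant animal 5 at 24 h was low for CCL3 (6.11), CXCL16 (9.27), IL10RB (9.07) and IL21R (5.46), and at 48 h it was low for CCL3 (6.02) and high for CCL14 (11.10). In resistant skin CXCL16 was low in the 0 h array numbered 4 (9.14), CXCL13 in animal 4 at 24 h (3.49) and IL13 in animal 6 at 24 h (1.09). In susceptible skin at 24 h, animal 10 was high for CCL2 (10.88) and CCL8 (7.52), animal 11 was high for IL1RN (8.79) and low for IL34 (4.03), and animal 8 was low for IL6R (6.79). In susceptible skin at 48 h, animal 10 was low for IL10RA (4.62) and animal 7 for IL13 (4.65).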

How the results depend on the processing

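The count of members passing the test was 0 in every comparison fitted, under each of 12 alternatives and 30 fits that left out 1 array. The fixed replicate blocks did not cover resistant against susceptible skin at a given time. Fits without an array covered only the comparisons that use its group. The alternative that also asked for a 2-fold change could not raise a count of 0. The smallest adjusted p of a member in limma was 0.0594, for IL1RAP at 48 h against 24 h in resistant skin. That fit had a random replicate block and 3 animal numbers moved. With the fixed replicate block, members called stayed at 0, while 84 probe sets passed at 48 h against 0 h in resistant skin, and 108 with the numbers moved, against 0 without the block. The 42 named results were chosen for a small p in these data, and none passed in the main fit. A side of the threshold could therefore change only by passing. Each result has 1 alternative value that repeats the main value with a 2-fold threshold added and could not change. Of 964 alternative values of these results, 962 kept direction and side of the threshold. The 2 that reversed were CCL3 read by its second probe set, at 0.17 for resistant against susceptible skin at 24 h and 0.0945 for 24 h against 0 h in resistant skin; the cause was not tested. IL10RA at 48 h against 0 h in susceptible skin was -0.58, and -0.09 without animal 10. The moved numbers were chosen after seeing the data. Low signal limits what can be said of the 38 members not kept.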
